A study of Mus musculus with 5 samples.

Results

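Runx1, Runx2, Runx3 and Cbfb are the 4 mouse genes of core-binding factor, a transcription factor made of an alpha and a beta subunit. They were taken by symbol and mapped to their Ensembl identifiers in the GRCm38 annotation, which found all 4 among the 55487 gene identifiers of the count table. All 4 also passed the filter on low counts that left 14423 genes to test. RNA was sequenced in bulk from common lymphoid progenitors, sorted from mouse bone marrow as lineage-negative cells with CD127 and Flt3 on their surface. The SF1 group had 3 libraries from mice with SclCre and the kinase mutant JAK2-V617F, and the WT group had 2 libraries from wild-type mice. Marrow of both groups was taken 16 weeks after tamoxifen, and the design sets SF1 against WT. In SclCre mice the recombinase is driven by sequences of Scl, also called Tal1, a gene of blood stem and progenitor cells. The sources used here give no age, sex or tamoxifen dose and do not say if animals were pooled, so p-values measure only the spread between these libraries, which may be technical.

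The 3 Runx proteins are alpha subunits, which share a DNA-binding Runt domain and recognise the same short DNA sequence. Cbfb, the beta subunit, does not touch DNA itself but makes each alpha subunit bind more tightly and protects it from degradation. Runx1 is needed for the first blood stem cells of the embryo and for B-cell and megakaryocyte development, Runx2 is the master factor of bone-forming osteoblasts and is also used by plasmacytoid dendritic cells, and Runx3 is known for its roles in cytotoxic T cells, natural killer cells and innate lymphoid cells. Runx genes have a distal and a proximal promoter, and counts per gene do not tell the transcripts of these promoters apart.

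The sequence that the 3 Runx genes share at their distal starts is shown here because it holds the family's own recognition sequence. RefSeq promoter windows of GRCm38.p6, which run from 250 bases before a start to 50 bases after it, were found for all 4 genes, with a distal and a proximal window for Runx1 and Runx3 and a single window for Runx2 and Cbfb. The longest run common to the distal windows of Runx1 and Runx3 and to the Runx2 window was 18 bases, given in capitals within 30 bases of the coding strand.
Runx1: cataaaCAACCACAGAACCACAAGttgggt
Runx2: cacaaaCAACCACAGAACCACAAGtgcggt
Runx3: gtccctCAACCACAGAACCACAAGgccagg
These bases lie at chr16:92826025-92826054 on the minus strand for Runx1, at chr17:44814583-44814612 on the minus strand for Runx2 and at chr4:135120503-135120532 on the plus strand for Runx3. The run began 27 bases into the transcribed part for Runx1, 22 bases into it for Runx2 and 136 bases before the start for Runx3. It holds the motif AACCACA, a form of the Runx recognition sequence, 2 times in tandem without overlap. On either strand (AACCACA or TGTGGTT), 5.27% of 32851 promoter windows held the motif at least once and 0.204% held it at least 2 times. The whole run was found in 4 windows, those of the 3 Runx genes and of Gm16225, a noncoding RNA gene that starts beside Runx3 on the other strand. The proximal windows of Runx1 and Runx3 and the Cbfb window held no AACCACA on either strand. A match is a description of the letters, and binding was not measured.

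SF1 libraries held between 9350767 and 11290082 counts in total, and WT replicates 1 and 2 held 20424296 and 8894288, so a single count was worth between 0.0503 and 0.114 CPM (counts relative to the library total, scaled by TMM). Of the 14423 genes tested, 16.5% differed between SF1 and WT at an adjusted p under 0.05, 6.77% higher and 9.74% lower in SF1, and 49% had library ranges that did not overlap. Among the sort genes, Flt3 was at between 1594 and 1700 CPM in SF1 and at 1514 and 1511 CPM in WT, and Il7r, which encodes CD127, was at between 421 and 465 CPM in SF1 and at 331 and 371 CPM in WT.

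Of the 4 core-binding factor genes, only Runx2 passed the test, as higher in SF1, while Runx1, Runx3 and Cbfb did not pass. A count of 1 in 4 is to be read against the 16.5% of all genes that passed. Library ranges did not overlap for 3 of the 4 genes, against 49% of all genes tested. Runx2 lay above the WT range in SF1, as did 24.8% of all genes, and Runx3 and Cbfb lay below it, as did 24.2%.

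Runx1 (ENSMUSG00000022952, GRCm38 chromosome 16, 92601466 to 92826149) was at 153, 142 and 159 CPM in SF1 replicates 1, 2 and 3 and at 153 and 164 CPM in WT replicates 1 and 2. The SF1 and WT ranges overlapped. The means were 151 ± 8.34 CPM for SF1 (SD, n = 3) and 158 ± 7.59 CPM for WT (n = 2), and the log2 fold change was -0.07 (SE 0.08, adjusted p = 0.644). The 95% interval of the log2 fold change, not adjusted for the number of genes, ran from -0.26 to 0.13. Runx1 did not pass under any of the 13 alternatives, with log2 fold changes between -0.12 and -0.02.

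Runx2 (ENSMUSG00000039153, chromosome 17, 44495987 to 44814797) was at 135, 179 and 203 CPM in SF1 replicates 1, 2 and 3 and at 92.9 and 104 CPM in WT replicates 1 and 2. Each SF1 library was above both WT libraries, and SF1 replicate 1 was nearest to them. Runx2 averaged 172 ± 34.7 CPM over the SF1 libraries (SD, n = 3) and 98.6 ± 7.97 CPM over the WT libraries (n = 2), which made it 1.75-fold higher in SF1 (log2 fold change 0.81, SE 0.16, 95% interval 0.45 to 1.16, adjusted p = 0.00977). It ranked 862nd by p among the genes tested. The call was lost without WT replicate 1, where the log2 fold change was 0.73, and was kept under the other 12 alternatives. The smallest adjusted p, 1.94e-12, came from the fit with no filter on low counts, where the SE was 0.10. By DESeq2 the adjusted p was 4.5e-06, and in the remaining fits that kept the call it was between 0.00195 and 0.0456.

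Runx3 (ENSMUSG00000070691, chromosome 4, 135120652 to 135177990) was at 54.7, 51.5 and 55.3 CPM in SF1 and at 58.0 and 60.8 CPM in WT. The SF1 values lay below the WT values without overlap, and the gene did not pass (53.8 ± 2.05 CPM in SF1, n = 3, and 59.4 ± 2.01 CPM in WT, n = 2; log2 fold change -0.14, SE 0.10, 95% interval -0.36 to 0.08, adjusted p = 0.369). With a correction for the exon GC content and length of genes the sign turned (log2 fold change 0.05, adjusted p = 0.785). Runx3 has the highest GC content of the 4 genes, 55.9% in its longest transcript, against 42.5% for Cbfb, the lowest.

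Cbfb (ENSMUSG00000031885, chromosome 8, 105170674 to 105217989) was at 306, 300.4 and 292 CPM in SF1 and at 327 and 353 CPM in WT. All SF1 values were below both WT values. Mean levels were 299 ± 7.11 CPM for SF1 (SD, n = 3) and 340 ± 18.1 CPM for WT (n = 2), with a log2 fold change of -0.18 (SE 0.07, 95% interval -0.35 to -0.01) whose unadjusted p of 0.0376 gave an adjusted p of 0.133 over all genes. After the GC and length correction Cbfb passed as lower in SF1 (log2 fold change -0.37, adjusted p = 0.0118), and it did not pass under the other 12 alternatives.

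**Figure D1:**
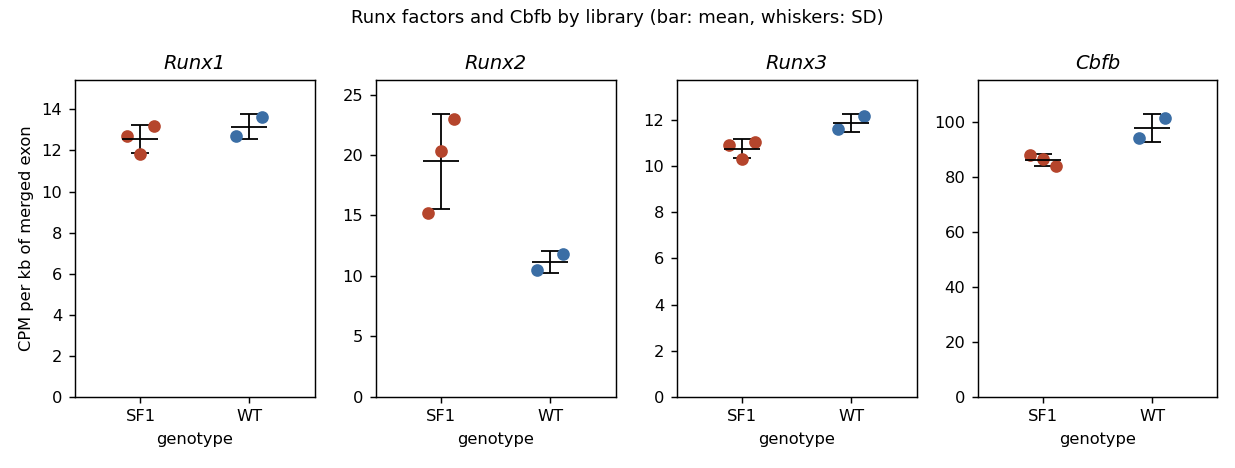
Levels of Runx1, Runx2, Runx3 and Cbfb in CPM per kilobase of merged exon, 1 panel per gene with its own axis from 0; points are libraries (3 SF1, 2 WT), the horizontal bar is the mean and the whiskers are the SD. In the Runx2 panel the SF1 points, from 15.2 to 22.9, lie above the WT points at 10.5 and 11.8, while the Runx1 points of both groups overlap.

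Levels were set side by side between the genes per kilobase of merged exon. On this scale Cbfb was the most abundant of the 4 RNAs in every library, at 86.0 ± 2.04 CPM per kb in SF1 (SD, n = 3) and 97.7 ± 5.21 CPM per kb in WT (n = 2), and lay at the 96.4th percentile of all genes tested. In SF1 the order of levels after Cbfb was Runx2 at 19.5 ± 3.93, Runx1 at 12.6 ± 0.693 and Runx3 at 10.8 ± 0.410 CPM per kb. Their library ranges in SF1 did not overlap. In WT the order was Runx1 at 13.2 ± 0.631, Runx3 at 11.9 ± 0.402 and Runx2 at 11.2 ± 0.901 CPM per kb. The WT ranges of Runx3 and Runx2 overlapped, so these neighbours could not be ordered. The 3 Runx genes lay between the 61.6th and 70.9th percentile of the genes tested.

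The makeup of the Runx RNA was then read within each library, which needs no scaling between libraries. Runx2 made up 39.2, 47.9 and 48.6% of the summed Runx level per kb in SF1 replicates 1, 2 and 3, against 30.2 and 31.4% in WT replicates 1 and 2. The Runx2 share was thus higher in each SF1 library than in either WT library, by 14.4 percentage points on average (45.2 ± 5.25% in SF1, n = 3, and 30.8 ± 0.844% in WT, n = 2). The share of Runx1 was 29.5 ± 2.78% in SF1 and 36.4 ± 0.201% in WT, and that of Runx3 was 25.3 ± 2.50% in SF1 and 32.8 ± 0.643% in WT. These shares sum to a fixed total, so a rise of Runx2 alone lowers the other shares.

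Cbfb RNA stood at 2.26, 2.04 and 1.78 times the summed Runx level per kb in SF1 replicates 1, 2 and 3, and at 2.70 times in both WT libraries. The ratio was lower in every SF1 library than in WT. Runx2 is part of the summed Runx level, so a rise of Runx2 alone lowers the ratio, and Cbfb itself did not pass. Exact two-sided permutation tests over the libraries gave p = 0.2 for each of these 4 measures, also after adjustment over them. The test doubles the smaller one-sided p, and 0.2 is the smallest p that it can give for 3 against 2 libraries. The ratio depends on the length used: by the longest transcript it was 1.57 ± 0.174 in SF1 (SD, n = 3) and 2.04 in WT (n = 2), and with no division by length 0.800 ± 0.0971 in SF1 and 1.08 ± 0.00241 in WT, below the WT value in SF1 each time. The order of the Runx genes rests on the length as well. Divided by the longest transcript, a length added after the data were seen, Runx1 led in WT with 46.9 ± 0.234% of the Runx level, and in SF1 Runx2 (40.0 ± 5.04%) and Runx1 (39.0 ± 3.23%) were not separated.

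**Figure D2:**
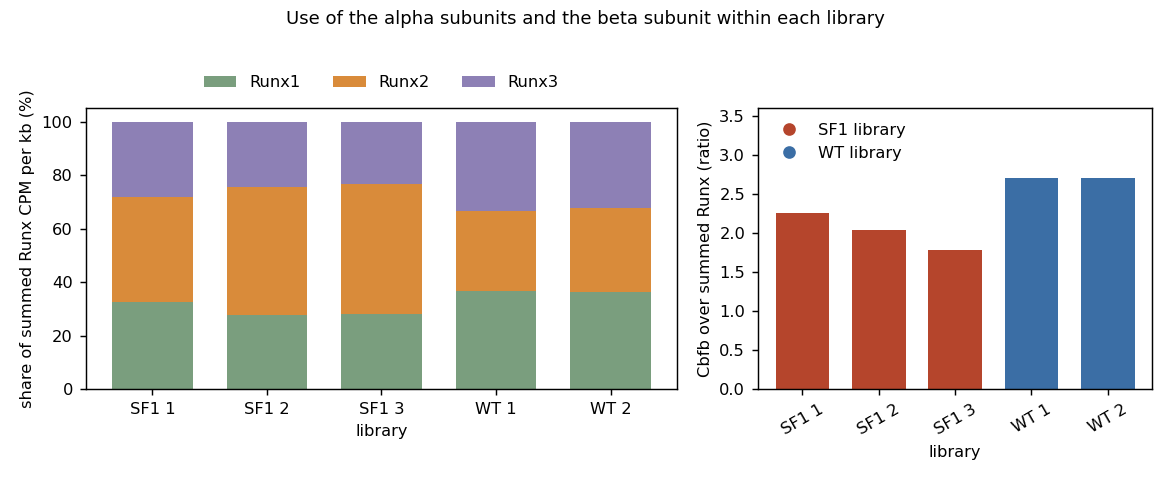
Left, the share of Runx1, Runx2 and Runx3 in the summed Runx level (CPM per kb, percent) in each library, SF1 libraries left of WT libraries; right, Cbfb over the summed Runx level as a ratio in each library. The Runx2 share is largest in SF1 replicate 3 (48.6%) and smallest in WT replicate 1 (30.2%), and the Cbfb ratio is between 1.78 and 2.26 in SF1 and 2.70 in WT.

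**Figure D3:**
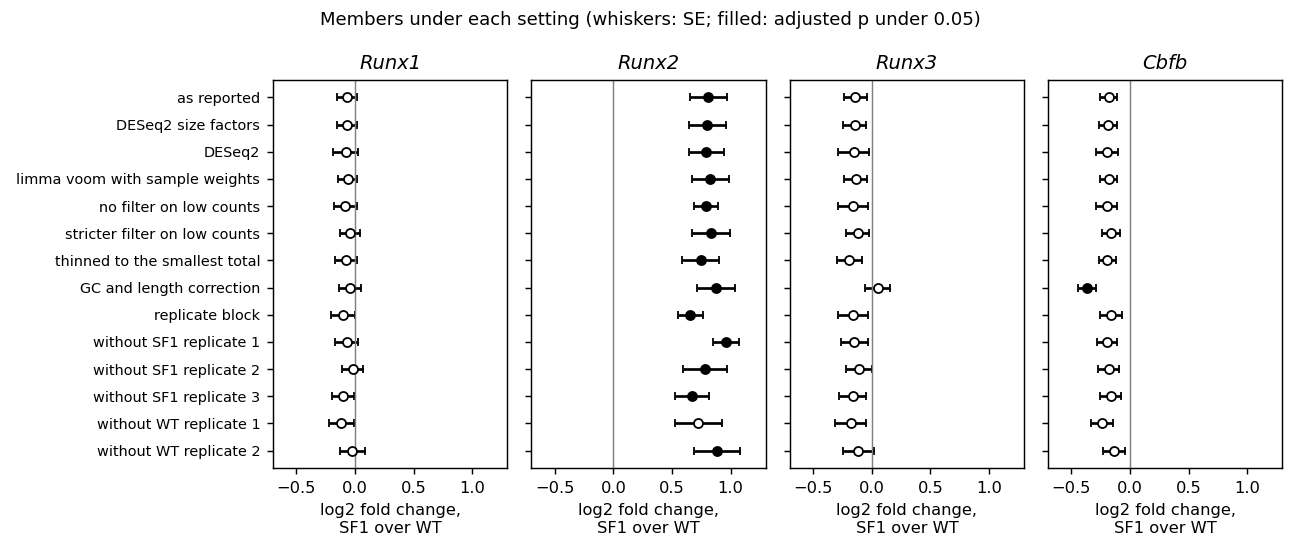
Log2 fold change of each gene, SF1 over WT, as reported and under 13 alternatives; whiskers are SE and filled points have an adjusted p under 0.05. Runx2 is between 0.66 and 0.96 in every row and open in the row without WT replicate 1, and Cbfb is filled in the row with GC and length correction.

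Genes that overlap Runx genes on the opposite strand were read as well, since the library chemistry does not mark the strand. Runx2os2, a noncoding RNA gene that lies opposite a Runx2 intron and shares no exon base with Runx2, had 46, 65 and 63 counts in the SF1 libraries and 30 and 16 counts in the WT libraries. At 4.89, 5.69 and 5.79 CPM in SF1 and 1.51 and 1.82 CPM in WT it was higher in SF1 (log2 fold change 1.73, SE 0.29, adjusted p = 0.00559), a call lost without WT replicate 1 (adjusted p = 0.0549). Reads of this gene cannot be told apart from intronic reads of Runx2. Runx2os1, which shares 519 bases with Runx2 exons, had between 78 and 117 counts in SF1 and 128 and 72 counts in WT and did not pass (adjusted p = 0.431), nor did Supt3, a transcription cofactor gene whose span overlaps the 5' part of Runx2 (adjusted p = 0.372). Gm26626, which shares 106 bases with Runx1 exons, had between 62 and 70 counts in SF1 and 149 and 63 counts in WT (adjusted p = 0.475). The other genes within 5000 bases, Runx2os3, n-R5s27, Gm16225, Gm16224, Gm3830, Gm22063 and Gm24629, had at most 8 counts in any library and were not tested. The antisense counts were small beside those of Runx2 itself, which had between 1265 and 2207 counts in SF1 and 1847 and 915 counts in WT.

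Corepressors that Runx proteins recruit differed in both directions. Of 22 cofactors and modifiers of Runx proteins, 20 were tested, of which 3 were higher, 2 lower and 15 not called in SF1; without WT replicate 1, 3 were higher and 1 lower. Their median log2 fold change was 0.09, against 0.02 over all genes tested, and 16.5% of all genes were called. Tle4, a Groucho corepressor that binds the C-terminal end of Runx proteins, was at 78.6, 106 and 95.4 CPM in SF1 and at 50.3 and 28.0 CPM in WT, 2.34-fold higher in SF1 (log2 fold change 1.23 with SE 0.22, adjusted p = 0.00729). Tle3, of the same family, was at 56.2, 53.7 and 58.8 CPM in SF1 and at 103 and 99.0 CPM in WT, lower in SF1 (log2 fold change -0.85 with SE 0.09, adjusted p = 0.000831). The ranges of both genes were apart, Tle4 above and Tle3 below WT in SF1. Tle1 and Tle2 did not pass (log2 fold change -0.14 and 0.00, adjusted p = 0.616 and 1.00).

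Ncor1, a corepressor that serves as a scaffold for histone deacetylases, rose 1.37-fold in SF1 (adjusted p = 0.00643). Aes, a short Groucho family member, was called higher (1.29-fold, adjusted p = 0.0334) but not without SF1 replicate 1 or 3 or WT replicate 1 or 2 (adjusted p between 0.0558 and 0.164). The acetyltransferase gene Crebbp was at between 135 and 136 CPM in SF1 and at 89.3 and 120 CPM in WT, missed the threshold (adjusted p = 0.0574) and passed it under 6 alternatives, among them without WT replicate 2 (0.00814). Cdk6, a kinase that binds Runx1, had a log2 fold change of 0.25 and did not pass (adjusted p = 0.0723; 0.0434 without WT replicate 2). The ETO family corepressor Cbfa2t3 (0.10, adjusted p = 0.706), the acetyltransferase gene Kat6a (0.00, adjusted p = 0.987) and the deacetylase genes Hdac1 and Hdac3 (0.12 and 0.14, adjusted p = 0.316 and 0.313) did not pass. Runx1t1 and Yap1 were too low to test, with less than 1 CPM in every library.

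Among transcription factors that bind beside Runx1 in blood progenitors, 1 of 7 was called, as higher, against 6.77% of all genes. Tal1, whose sequences drive the Cre of the SF1 mice, was at 22.0, 16.2 and 19.9 CPM in SF1 and at 11.8 and 13.2 CPM in WT, called higher (log2 fold change 0.64 with SE 0.18, adjusted p = 0.0422). This call was lost when all libraries were thinned to the smallest total (adjusted p = 0.057) and without SF1 replicate 1 or 3 or WT replicate 1 or 2 (adjusted p between 0.0822 and 0.231). Lyl1, a close relative of Tal1, had a log2 fold change of 0.45 and did not pass (adjusted p = 0.0854; 0.0476 without WT replicate 2). The ETS factor genes Erg and Fli1 were at -0.25 and -0.14, Gata2 at -0.34, and the adaptor genes Lmo2 and Ldb1 at 0.12 and -0.01 on the log2 scale, none of them past the threshold (adjusted p between 0.19 and 0.975). Fli1 passed as lower after GC and length correction (adjusted p = 0.0305). The median of the 7 genes was -0.01.

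Genes known as direct Runx targets in blood cells also went both ways. Of 29 listed, 22 were tested, with 4 higher, 2 lower and 16 not called, and their median log2 fold change was 0.05. Over all genes 6.77% were higher and 9.74% lower. The number of targets called higher was 2 when SF1 replicate 3 or WT replicate 2 was left out, and the number lower was 3 when SF1 replicate 1 was. Of the 29, 15 are also in a list of cell type markers. Csf1r, the macrophage colony-stimulating factor receptor gene that Runx1 binds at its intronic enhancer, was at 125, 158 and 141 CPM in SF1 and at 48.2 and 76.5 CPM in WT, higher in SF1 (log2 fold change 1.20 with SE 0.18, adjusted p = 0.00372). Itgal, the integrin alpha-L gene, was at 164, 152 and 159 CPM in SF1 and at 250.4 and 236 CPM in WT, lower in SF1 (log2 fold change -0.62 with SE 0.08, adjusted p = 0.00153). In both genes the groups lay apart, Csf1r above and Itgal below WT in SF1.

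Elane, the neutrophil elastase gene, rose 7.70-fold (adjusted p = 0.00568), and Cd79a, the Ig-alpha gene of the B-cell receptor complex, fell by 0.97 in log2 units (adjusted p = 0.00799). The erythroid and megakaryocyte factor gene Nfe2 (1.34-fold, adjusted p = 0.0224) and the platelet chemokine gene Pf4 (6.77-fold, adjusted p = 0.0342) were also called higher. The Nfe2 call was lost without SF1 replicate 2 or 3 or WT replicate 1 or 2 (adjusted p between 0.0713 and 0.0887) and with GC and length correction (0.0583), and the Pf4 call without SF1 replicate 3 or WT replicate 1 or 2 (between 0.0674 and 0.135) and by limma voom (0.0768). Ebf1, a B-lineage factor gene that depends on Runx1, was at 198, 92.4 and 103 CPM in SF1 and at 213 and 201 CPM in WT (adjusted p = 0.127). SF1 replicate 1 was close to WT, and without it Ebf1 passed as lower (log2 fold change -1.08, adjusted p = 0.00102). Spi1, which encodes PU.1 and is regulated by Runx1 through a distant enhancer, did not pass (log2 fold change -0.15, adjusted p = 0.347), nor did Mpo, the myeloperoxidase gene (-0.04, adjusted p = 0.857), or Blk, a B-cell kinase gene (-0.25, adjusted p = 0.329). Bcl11b, Csf2, Gzmb, Ifng and Il3 had no counts in any library. In the promoter windows of these targets, 3 of 24 held AACCACA on either strand, those of Ebf1, Gzmb and Il3, against 5.27% of all windows.

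**Figure D4:**
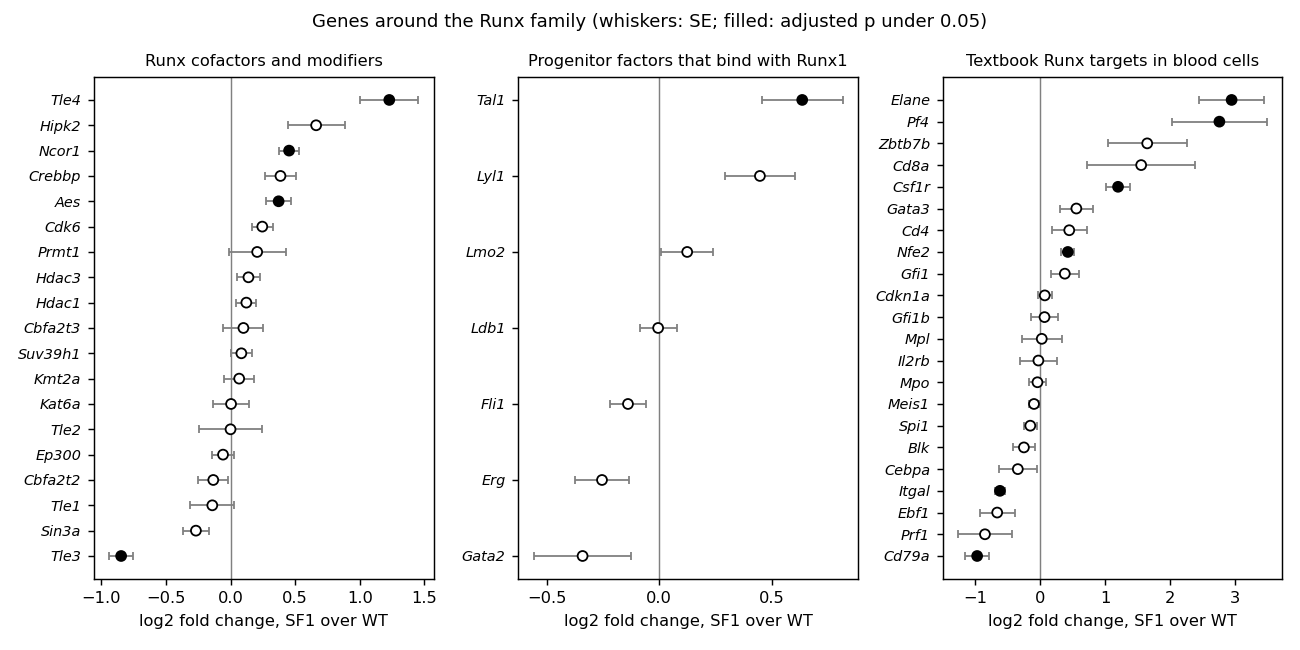
Log2 fold change, SF1 over WT, of genes tested in the lists of Runx cofactors, progenitor factors that bind with Runx1 and Runx targets in blood cells, 1 panel per list with its own axis; whiskers are SE and filled points have an adjusted p under 0.05. Tle4 (1.23) and Tle3 (-0.85) lie at opposite ends of the cofactor panel, and Elane (2.95) and Cd79a (-0.97) at the ends of the target panel.

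Markers of other cell types that use Runx factors moved between the groups too. In bulk RNA, more cells of a type and more RNA per cell cannot be told apart. Of 12 plasmacytoid dendritic cell markers, 10 were tested and 8 were higher, against 6.77% of all genes, and none lower. Their median log2 fold change was 0.93 against 0.02 over all genes, and 6 were called higher when WT replicate 1 was left out. Their summed level was 2027, 2261 and 2567 CPM in SF1 replicates 1, 2 and 3 and 1157 and 1324 CPM in WT replicates 1 and 2. Irf8 was the largest part, at between 1039 and 1319 CPM in SF1 and at 575 and 663 CPM in WT. The 5 libraries stood in the same order by this sum as by Runx2, which also held for the neutrophil and monocyte markers. They stood in this order along the first principal component of all libraries too, which held 70.5% of the variance. The sums of the B-lineage markers ran in the exact reverse order. The order is thus not particular to these markers, and the share of all genes that follow it was not counted. The receptor gene Siglech was at 209, 313 and 297 CPM in SF1 and at 67.9 and 81.9 CPM in WT (log2 fold change 1.87, adjusted p = 0.000443), and Tcf4, the E protein gene that directs these cells, was at 369, 386 and 420 CPM in SF1 and 273 and 301 CPM in WT (0.45, adjusted p = 0.0096), a call lost when WT replicate 1 was left out (0.0767). The markers Cd209d and Klk1 had at most 1 count in any library. The part of these cells in the Runx2 result was not tested.

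Of 18 neutrophil and monocyte markers 16 were higher, against 6.77% of all genes, and none lower, with 9 called when WT replicate 1 was left out. Their levels summed to between 2480 and 6398 CPM in SF1 and to 1144 and 1461 CPM in WT. The lowest SF1 sum was in replicate 1 and the highest in replicate 3. All 5 libraries stood in the same order as by Runx2, which is also their order along the first principal component. The part of these cells in the Runx2 and Csf1r results was not tested. The osteoblast and stroma markers, the textbook setting of Runx2, were low, the highest being Alpl at 10.1 CPM in WT replicate 1. Their 14 genes summed to between 8.55 and 10.9 CPM in SF1 and to 17.8 and 21.1 CPM in WT. The part of osteoblasts and stromal cells in the Runx2 result was not tested. Spp1 and Sparc were tested and did not pass (log2 fold change -0.08 and -0.20, adjusted p = 0.897 and 0.789). Bglap2, Dmp1 and Col2a1 had no counts in any library, and Sp7, an osteoblast factor downstream of Runx2, had a single count in WT replicate 1. Of the 4 tested, Alpl, the alkaline phosphatase gene, was lower (log2 fold change -1.23, adjusted p = 0.00873; 0.0982 without WT replicate 1), as was the chemokine gene Cxcl12 (-2.10, adjusted p = 0.0266). The Cxcl12 call was lost when WT replicate 2 (0.212), SF1 replicate 2 (0.0908) or SF1 replicate 3 (0.0825) was left out, and by limma voom (0.0512).

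The natural killer and innate lymphoid markers belong to cell types in which Runx3 has a known role. Of 16 listed, 10 were tested, with 2 higher, against 6.77% of all genes, none lower and 8 not called. Their median log2 fold change was 0.77, against 0.02 over all genes tested. Klrd1, the CD94 receptor gene, was at 22.4, 28.4 and 32.4 CPM in SF1 and at 9.66 and 8.43 CPM in WT (adjusted p = 0.00126), and Id2, an inhibitor of E proteins, rose 1.63-fold (adjusted p = 0.0111; 0.0881 without WT replicate 1 and 0.0516 with GC and length correction). The list summed to between 242 and 270 CPM in SF1 and to 212 and 218 CPM in WT. Most of this sum was Nkg7, at between 150 and 175 CPM in SF1 and at 158 and 163 CPM in WT (adjusted p = 0.958). The part of these cells in the Runx3 result was not tested. Gzmb had no counts, and Ncr1, Eomes and Tbx21, which define mature natural killer cells, had at most 3 counts in any library.

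**Figure D5:**
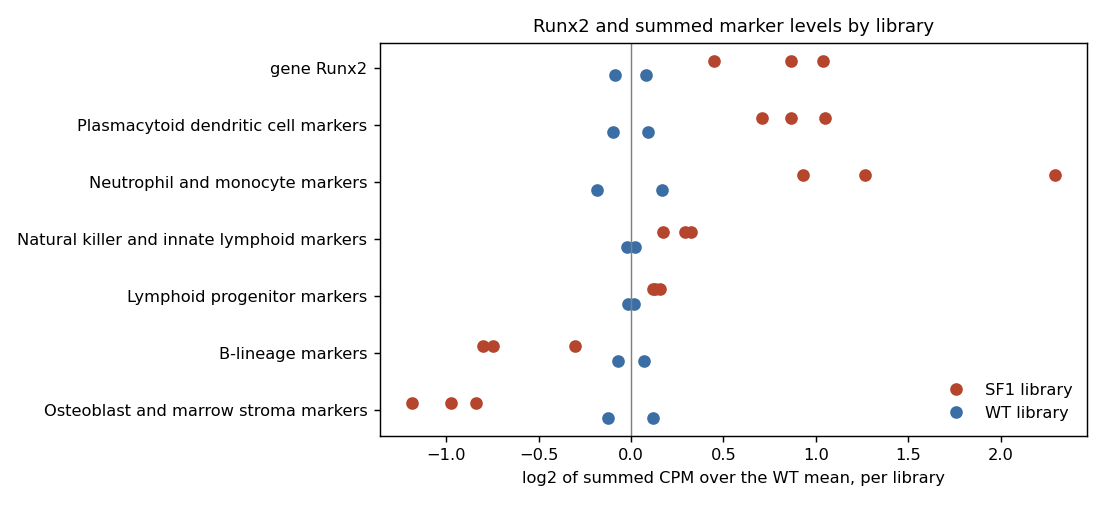
Runx2 and the summed CPM of 6 marker lists in each library, as log2 over the WT mean (horizontal axis, 0 is the WT mean); red points are the 3 SF1 libraries and blue points the 2 WT libraries. The Runx2 and plasmacytoid dendritic cell points of SF1 lie right of both WT points, and the osteoblast and stroma points of SF1 lie left of them.

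Genes with the most similar profile were found for each family gene by the root mean square distance between log2 CPM profiles over the 5 libraries, each centred on its own mean, among 11044 genes with a mean of at least 5 CPM. The profile of Runx2 was nearest to those of Inpp4a, Grn, Klhl30, Anxa5 and Sqor, at distances between 0.0606 and 0.0664 on the log2 scale, against a median of 0.458 between Runx2 and all genes compared. Grn, the progranulin gene, was at 204, 252 and 312 CPM in SF1 and at 135 and 144 CPM in WT. These genes were picked for their nearness to Runx2 in the same libraries, so a shared order of libraries is no separate result. The genes nearest to Runx1 were Mbtd1, Wdr74, Cfdp1, Mrgbp and Ccdc152 (distances up to 0.0211), those nearest to Runx3 were Pstpip1, Mboat7, Dnttip2, Eif2b4 and Gcdh (up to 0.0200), and those nearest to Cbfb were Dhx32, Serbp1, Tex264, Med15 and Kpna4 (up to 0.0203). Profiles as flat as those of Runx1, Runx3 and Cbfb have many near neighbours, so these names describe the 5 libraries only.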

How the data were processed

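The deposited values are raw counts of reads for each gene and were not normalized by the authors. The submitters' processing notes name HISAT2 2.2.1, featureCounts 2.0.1, FastQC and the GRCm38 build. They give no annotation release, strand setting or rule for multi-mapping reads. Per the labels' protocols, RNA with a RIN above 7 was amplified with SMART-Seq version 2 or 4 chemistry, without molecular identifiers, so PCR copies count as reads. GENCODE M21 gave symbols, coordinates and merged exon lengths for 55227 identifiers.

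Genes were tested with edgeR 4.0.16 in R 4.3.3 (TMM, filterByExpr with minimum count 10, quasi-likelihood F test, no covariate), with Benjamini-Hochberg adjustment over all genes and a threshold of 0.05. The code was tested on simulated data. Fold changes on the log2 scale set SF1 over WT, and the SE comes from the F statistic. Alternatives included DESeq2 1.42.0, limma 3.58.1 voom with sample weights, other filters, thinning and a GC and length trend removed per library. The members and the 15 gene lists (190 genes) were chosen with earlier results of these data known. Named were the 4 genes, the 11 genes within 5000 bases of them, up to 6 genes per list with the smallest p, 8 genes of known Runx role and the 5 nearest profiles (pseudocount 0.5). Tle1, Tle2, Hdac1, Hdac3, Blk, Gata2, Erg and other list genes beyond these were named after their values were seen. A list gene that was counted but is not reported here by name is also left out of the plot of list genes. Repeats of a library were not found: the chi-square of 2 libraries of a group, divided by its degrees of freedom, was at least 6.89.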

Additional observations from a re-analysis of the deposited data

How the results depend on the processing

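Over 13 alternatives Runx1 kept its sign and did not pass, Runx2 kept its sign and passed in 12 (log2 fold change between 0.67 and 0.96 over the fits that left out a library, with 0.73 and an adjusted p of 0.072 without WT replicate 1), Runx3 reversed with GC and length correction (0.050) and Cbfb passed with it (-0.37). The cause was not tested. The number of changed genes was 2382, was 1519 with a block for replicate number, and ran from 986 without WT replicate 1, over 1234 and 1294 without SF1 replicates 2 and 3, to 2170 without SF1 replicate 1. Replicate numbers 1 and 2 are shared by the groups, but the labels do not say that they pair libraries. Deviations from the group means correlated by only 0.0491 and 0.0672 over 11044 genes in the 2 pairs. With 2 WT libraries the WT deviations are mirror images, so these correlations are not separate checks of pairing. With the block Runx2 was at 0.66 (adjusted p = 0.00739), and the calls of Runx1, Runx2, Runx3 and Cbfb did not change. Replicate number 3 is found only in SF1, so in this fit SF1 replicate 3 adds nothing to the estimate of SF1 over WT. Calls of the list genes Tal1, Nfe2, Pf4, Aes and Cxcl12 were lost with the block (adjusted p = 0.113, 0.0846, 0.0656, 0.0507 and 0.0751). Each of these calls was also lost without SF1 replicate 3, so the block and the loss of that library cannot be told apart here. The 3 Runx shares and the Cbfb ratio kept their direction in every alternative run. Without a WT library, that group has 1 library, which is assumed to vary like the others. With 2 WT libraries the 95% interval of the Cbfb log2 fold change ran from -0.35 to -0.01, which limits what can be said of changes of that size.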

Other observations

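Other marker lists show what else differed in the libraries in which the Runx genes were read, and their counts stand beside 6.77% of all genes called higher and 9.74% called lower. Of 13 tested B-lineage markers, 8 were lower in SF1, or 5 when SF1 replicate 3 or WT replicate 1 was left out, and none was higher. Their sums were between 1148 and 1620 CPM in SF1 and 2099 and 1903 CPM in WT. Of 11 tested erythroid markers, 7 were lower and none higher, Car1 among the lower (log2 fold change -3.87, adjusted p = 0.000117). With the stricter filter on low counts 2 were lower. Tfrc, the erythroid marker with the highest level, was not called (log2 fold change 0.39, adjusted p = 0.0775). The erythroid sums overlapped, between 362 and 426 CPM in SF1 and at 487 and 383 CPM in WT. Of 11 tested macrophage markers 6 were lower, but 2 when SF1 replicate 2 or WT replicate 2 was left out and 1 when WT replicate 1 was. The macrophage marker Cd68 was called higher, a call lost with WT replicate 1 left out. Of the macrophage markers, 1 was lower with the stricter filter on low counts. The macrophage sums overlapped as well, between 36.7 and 59.3 CPM in SF1 and at 50.3 and 61.8 CPM in WT. The megakaryocyte markers, for which Runx1 is needed, had 1 of 5 higher, Pf4, and summed to between 10.9 and 24.8 CPM in SF1 and to 10.2 and 11.7 CPM in WT. Of 6 tested T-cell markers 1 was called higher, the costimulatory receptor gene Cd28 (adjusted p = 0.00729), and none was when WT replicate 1 was left out. Cd8b1 and Bcl11b had no counts.

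The lymphoid progenitor markers had 4 higher and 1 lower of 10, and 2 higher and 0 lower when SF1 replicate 2, SF1 replicate 3 or WT replicate 1 was left out. Of 10 mature B and plasma cell markers 2 were higher and 1 lower. The genes called higher were Igkc, the immunoglobulin kappa constant gene, and Jchain, the joining chain gene of secreted antibodies. Igkc was at 185, 136 and 168 CPM in SF1 and at 0.604 and 0.342 CPM in WT (adjusted p = 1.43e-06). Jchain was at 85.1, 68.4 and 31.8 CPM in SF1 and at 1.36 and 0.911 CPM in WT (adjusted p = 0.000395). Both were many times higher in every SF1 library than in either WT library. Xbp1, Sdc1, Irf4, Mzb1 and Prdm1 of the same list were not called. For Xbp1 and Sdc1 the SF1 libraries lay above both WT libraries (log2 fold change 0.28 and 0.23). For Irf4 and Mzb1 they lay below (-0.64 and -0.98), and for Prdm1 the groups overlapped (0.10). The list as a whole thus did not follow Igkc and Jchain. The part of plasma cells in the Runx results was not tested.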
